A study of Mus musculus with 9 samples.

Results

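The 10 genes described here are Wnt target and feedback genes of the mouse: *Notum*, *Axin2*, *Nkd1*, *Nkd2*, *Lef1*, *Tcf7*, *Rnf43*, *Znrf3*, *Lgr5* and *Sp5*. They are 10 of the 24421 genes of an RNA-seq count table of 4T1, a triple-negative mammary carcinoma line of the mouse that lacks the estrogen and progesterone receptors and HER2. The list was chosen from known Wnt targets with the measured changes of these libraries in view, so the levels, fold changes and counts of these genes are descriptions and carry no test. A filter on low counts kept 6 of the 10 genes, and the other 4, *Axin2*, *Nkd1*, *Lgr5* and *Sp5*, had too few reads to be fitted.

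The 9 libraries fell into 3 groups of 3. In the first, cells grew as 3D spheroids on a soft agar base in serum-containing medium without added palmitate, a saturated fatty acid. In the second, spheroids received 75 µM palmitate coupled to albumin on top of the serum. In the third, cells grew as 2D monolayers with the same 75 µM palmitate. All cultures were kept for 5 days, and the cultures without added palmitate received the albumin carrier with an amount of ethanol matched to the fatty acid stocks. Every group therefore shared the cell line, the serum, the carrier and the ethanol. A 2D culture without added palmitate was not analysed here, so 3D and 2D are compared only in the presence of palmitate. The 2 comparisons, 3D against 2D with palmitate and 3D with against 3D without palmitate, share the 3 libraries of 3D cultures with palmitate.

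In canonical Wnt signaling, secreted Wnt proteins that carry a palmitoleate lipid bind Frizzled receptors and the co-receptors LRP5 and LRP6. Binding halts the destruction complex, β-catenin accumulates, and β-catenin with TCF and LEF proteins activates target genes. Many of these targets feed back on the pathway: NOTUM is a secreted enzyme that removes the lipid from Wnt proteins, RNF43 and ZNRF3 are ubiquitin ligases that clear Frizzled receptors from the cell surface, AXIN2 is a scaffold of the destruction complex, and the NKD proteins bind Dishevelled. LGR5 is a receptor for R-spondins, which protect Frizzled receptors from RNF43 and ZNRF3, and SP5 is a transcription factor that represses other Wnt targets.

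Total counts per library ranged from 6595514 to 31177756, with the smallest library among the 3D cultures with palmitate. Values are given as CPM, counts scaled to a common library total after TMM normalization. The labels do not say that the libraries of one group came from separate cultures. SDs therefore describe only the spread between these samples. The p-values are judged against that spread and may not hold for separate cultures. All 8 epithelial markers passed the filter, with a summed level of 5330 to 5397 CPM in 3D cultures without palmitate, 5180 to 5478 CPM in 3D cultures with it and 4253 to 4593 CPM in 2D cultures. These markers went both ways. With palmitate, *Epcam* was at a mean of 707 CPM in 3D and 263 in 2D, and *Krt8* at 1476 and 980. *Krt7* was at 607 and 866, and *Cldn4* at 125 and 222. Between 3D with and without palmitate, 1 of the 8 had an edgeR adjusted p under 0.05, against 2.19% of all genes. It was *Krt14*, at a mean of 129 CPM with palmitate and 185 without (log2 fold change -0.52, edgeR adjusted p = 0.00517). Of 6 fibroblast markers 3 passed, with summed levels of 91.7 to 107, 93.4 to 111 and 33.2 to 34.6 CPM in 3D without palmitate, 3D with it and 2D. Nearly all of this sum was *Pdgfra* at a mean of 97.4, 98.8 and 30.4 CPM, while the collagen gene *Col1a1* was at 1.01, 0.845 and 2.18 CPM. The collagen gene *Col1a2* and *Dcn* had at most 1 count in any 3D library, and *Col1a2* had 19, 29 and 32 counts in 2D. Of 6 leukocyte markers 1 passed and 2 were at 0 in all libraries, and the summed level was 7.16 to 9.35, 8.73 to 11.6 and 24.5 to 28.2 CPM. The gene that passed, *Cd68*, made up most of it, at a mean of 7.08, 9.40 and 25.7 CPM. Of 4 endothelial markers 1 passed, and the summed level reached at most 1.49 CPM in any library. The part of these markers in the results was not tested. In RNA from whole cultures, fewer cells that express a gene and less RNA per cell cannot be told apart.

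The sequences upstream of 2 members are shown because they alone, among the members searched, carry letters that TCF and LEF proteins are known to bind. *Sp5* had no reads and *Lef1* had some in every library, and a link between letters and reads was not tested. The letters searched were the string CTTTGAA, its form with another last base CTTTGAT, and the corresponding strings with a different base before that, CTTTGTA for the former and CTTTGTT for the latter. These 4 strings were searched on both strands of RefSeq promoter windows on GRCm38.p6. The windows of 300 bases run from 250 bases before a start to 50 bases after it. Windows were found for 7 of the 10 members, and *Notum*, *Znrf3* and *Lgr5* had none and were not searched. Of the 12 windows of these 7 members 2 held a match, against 16.9% of all 32851 windows. The 250 bases before the start of *Sp5*, chr2:70474673-70474922 on the plus strand, held 2 matches, shown in capitals. The 250 bases before one start inside the span of *Lef1*, chr3:131156044-131156293 on the plus strand, held 1. The other windows of *Lef1*, which begin at chr3:131110047, chr3:131110073 and chr3:131112541, held none.
Sp5: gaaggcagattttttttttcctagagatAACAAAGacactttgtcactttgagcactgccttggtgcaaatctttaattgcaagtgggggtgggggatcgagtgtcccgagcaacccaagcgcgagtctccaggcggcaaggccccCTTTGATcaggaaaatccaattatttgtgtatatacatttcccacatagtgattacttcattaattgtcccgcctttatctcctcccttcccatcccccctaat
Lef1: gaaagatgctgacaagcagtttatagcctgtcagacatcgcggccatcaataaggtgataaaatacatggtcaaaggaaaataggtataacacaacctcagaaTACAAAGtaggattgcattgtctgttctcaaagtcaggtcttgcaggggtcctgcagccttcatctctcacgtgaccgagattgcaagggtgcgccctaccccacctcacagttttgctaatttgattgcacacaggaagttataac
The capitals of *Lef1* and the first of *Sp5* are matches on the opposite strand. A match says only that the letters are there, and the windows of *Axin2*, *Nkd1*, *Nkd2*, *Tcf7* and *Rnf43* held none of the 4 strings.

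*Notum* had the largest difference of the fitted members. The gene lies on the minus strand of GRCm38 at chr11:120653788-120661175. It had 377, 298 and 367 counts in the 3D cultures without palmitate and 465, 194 and 100 in those with palmitate, but 13, 29 and 18 counts in the 2D cultures. Its level was 17.8, 19.3 and 19.9 CPM in 3D without palmitate, with a mean of 19.0 CPM ± 1.07 (SD, n = 3). In 3D with palmitate it was 17.1, 14.7 and 15.3 CPM, with a mean of 15.7 CPM ± 1.24 (SD, n = 3). In 2D with palmitate it was 1.08, 0.929 and 0.802 CPM, with a mean of 0.935 CPM ± 0.137 (SD, n = 3). The 6 values of the 3D libraries lay far above the 3 of the 2D libraries, and the spheroids without palmitate lay above those with it without overlap. The fitted fold change of 3D against 2D was 17.3, or 4.11 on the log2 scale (SE 0.146), which placed *Notum* at position 84 from the top of the 12575 genes fitted. For palmitate in 3D the log2 fold change was -0.25 (SE 0.0965) and *Notum* was not called. After the trend with GC content and transcript length was removed, it was -0.33 and was called lower. Of its 2408 exon bases, 918 are shared with the antisense genes *Notumos* and *Myadml2os*, and the strand setting of the counting is not given in the sources used here.

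**Figure D1:**
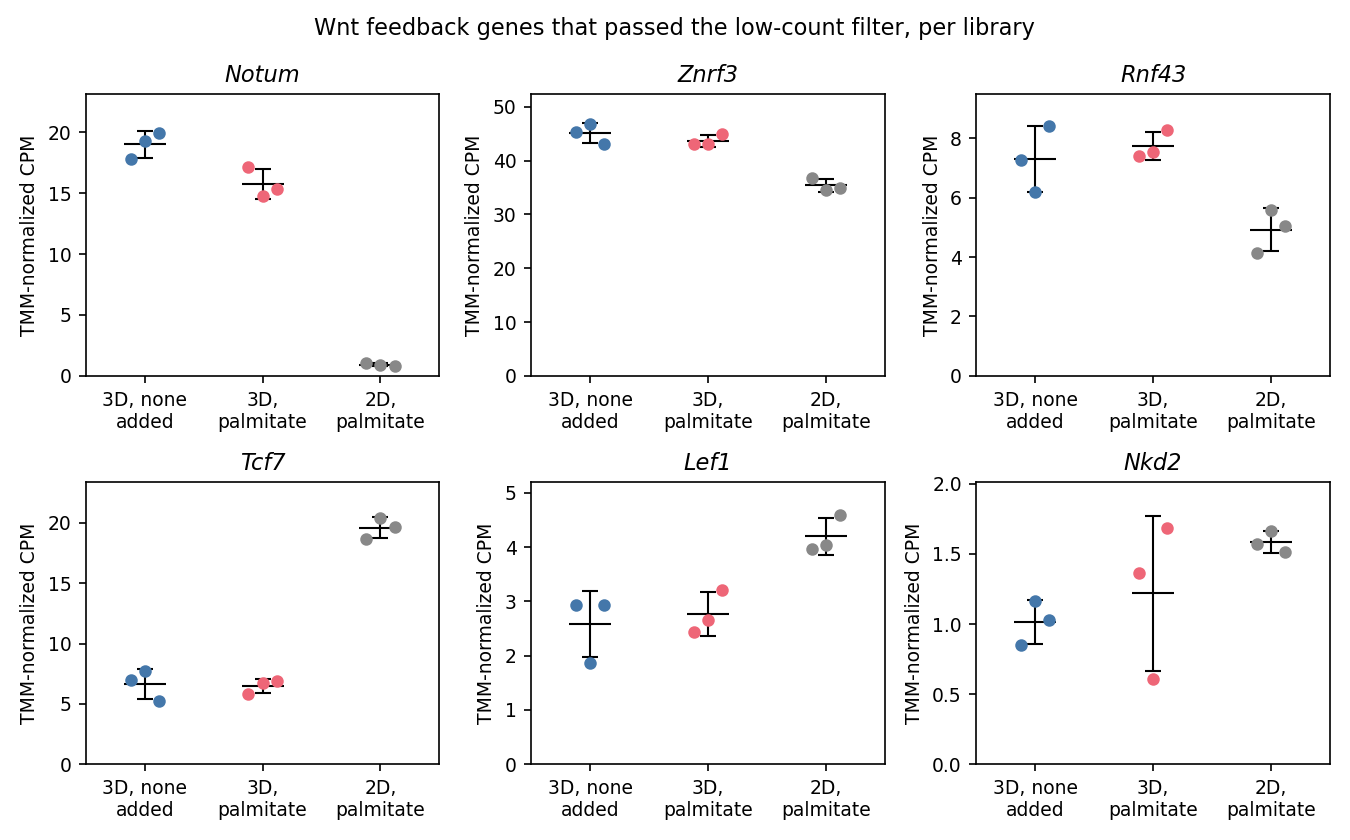
TMM-normalized CPM of the 6 fitted genes in each library (points), with the group mean and SD (bars), for 3D without palmitate, 3D with palmitate and 2D with palmitate. *Notum*, *Znrf3* and *Rnf43* are higher in every 3D library than in any 2D library, and *Tcf7* and *Lef1* are lower.

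The receptor-clearing ligases *Znrf3* and *Rnf43* differed in the same direction as *Notum* but by far less. *Znrf3*, at chr11:5276324-5444847, was at 45.4, 46.8 and 43.1 CPM in 3D without palmitate, 43.1, 43.0 and 44.9 CPM in 3D with palmitate and 36.7, 34.5 and 35.0 CPM in 2D. Its means were 45.1 ± 1.87, 43.7 ± 1.05 and 35.4 ± 1.16 CPM (SD, n = 3 each). The 3D libraries lay above the 2D libraries without overlap, with a fold change of 1.23, or 0.30 on the log2 scale (SE 0.0662). This small difference shrank to 0.02 on the log2 scale, and the call was lost, when the trend with GC content and transcript length was removed. *Rnf43*, at chr11:87662722-87735539, was at 7.28, 6.20 and 8.41 CPM in 3D without palmitate, 7.40, 7.52 and 8.27 CPM in 3D with palmitate and 4.14, 5.57 and 5.03 CPM in 2D. Its means were 7.30 ± 1.10, 7.73 ± 0.472 and 4.91 ± 0.727 CPM (SD, n = 3 each). No 2D library reached the lowest 3D library, and the fold change was 1.51, or 0.59 on the log2 scale (SE 0.145). Added palmitate in 3D gave log2 fold changes of -0.05 (SE 0.0656) for *Znrf3* and 0.06 (SE 0.141) for *Rnf43*. For both genes the groups with and without palmitate overlapped.

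The nuclear factors *Tcf7* and *Lef1*, both DNA-binding partners of β-catenin and themselves Wnt targets, went the other way. *Tcf7*, at chr11:52252371-52283014, was at 6.94, 7.75 and 5.26 CPM in 3D without palmitate, 5.85, 6.76 and 6.89 CPM in 3D with palmitate and 18.7, 20.4 and 19.7 CPM in 2D. Its means were 6.65 ± 1.27, 6.50 ± 0.566 and 19.6 ± 0.876 CPM (SD, n = 3 each). Its 2D values all lay above 18 CPM and no 3D value exceeded 7.75 CPM. The level in 3D with palmitate was 3.10-fold lower than in 2D, a log2 fold change of -1.63 (SE 0.129). *Lef1*, at chr3:131110471-131224356, was at 2.93, 1.87 and 2.93 CPM in 3D without palmitate, 2.43, 2.66 and 3.22 CPM in 3D with palmitate and 3.97, 4.04 and 4.59 CPM in 2D. Its means were 2.58 ± 0.609, 2.77 ± 0.405 and 4.20 ± 0.340 CPM (SD, n = 3 each). All 3D values lay below the 2D values, and 3D with palmitate was 1.59-fold lower than 2D, a log2 fold change of -0.67 (SE 0.188). Between 3D with and without palmitate the log2 fold changes were -0.06 (SE 0.146) for *Tcf7* and 0.01 (SE 0.205) for *Lef1*, with overlapping groups. The antisense gene *Gm43352* shares 1208 of the 8788 exon bases of *Lef1*.

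*Nkd2*, which encodes a Dishevelled-binding inhibitor of the pathway, was low in all groups. At chr13:73818534-73847631, it had 18, 18 and 19 counts in 3D without palmitate, 37, 8 and 11 in 3D with palmitate and 19, 52 and 34 in 2D. These were 0.850, 1.16 and 1.03 CPM, then 1.36, 0.608 and 1.68 CPM, and then 1.57, 1.67 and 1.51 CPM. The 3D libraries with palmitate spanned both other groups, so the 3 groups could not be placed in order by this gene. The log2 fold change was -0.42 (SE 0.279) for 3D against 2D and 0.24 (SE 0.310) for palmitate in 3D, and neither was called. Without the second 3D library with palmitate, which had 8 counts, these values were -0.15 and 0.52.

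The 4 genes that did not pass the filter include widely used readouts of Wnt activity. *Axin2*, at chr11:108920349-108950783, had 0, 3 and 2 counts in 3D without palmitate, 1, 0 and 0 in 3D with palmitate and 1, 2 and 1 in 2D, or 10 counts in all, and 209 of its exon bases are shared with the antisense gene *Gm11670*. *Lgr5*, at chr10:115450311-115587780, had 0, 0 and 1 counts, then 2, 2 and 0, and then 0, 1 and 0, or 6 in all. *Nkd1*, at chr8:88521354-88594884, had 1 count in 1 library of 3D without palmitate. *Sp5*, at chr2:70474923-70477729, had 0 counts in all 9 libraries, which allows a level of up to 0.0179 CPM over their pooled 167367204 counts, by counting error alone. The highest single value among these 4 genes was 0.194 CPM, for *Axin2* in the second 3D library without palmitate. A group with 0 counts allows up to 0.0545 CPM in 3D without palmitate, 0.0640 CPM in 3D with palmitate and 0.0456 CPM in 2D. Differences between groups of a few counts were not detectable at this depth for these 4 genes. When no filter was applied, none of *Axin2*, *Lgr5* and *Nkd1* was called by edgeR in either comparison, and *Sp5* could not be fitted.

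Per kilobase of exon, levels can be set side by side between genes. In 3D without palmitate the order of mean RPKM was *Notum* at 7.89, *Znrf3* at 5.71, *Tcf7* at 2.53, *Rnf43* at 1.11, *Lef1* at 0.293 and *Nkd2* at 0.210. In 3D with palmitate it was *Notum* at 6.53, *Znrf3* at 5.53, *Tcf7* at 2.48, *Rnf43* at 1.18, *Lef1* at 0.315 and *Nkd2* at 0.252. In 2D it was *Tcf7* at 7.47, *Znrf3* at 4.49, *Rnf43* at 0.749, *Lef1* at 0.478, *Notum* at 0.388 and *Nkd2* at 0.328. *Notum* thus stood first among the 6 fitted genes in both kinds of 3D culture and below *Lef1* in 2D, where *Tcf7* stood first. The values of neighbours in these orders overlapped for *Lef1* and *Nkd2* in both 3D groups and for *Notum* and *Nkd2* in 2D.

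**Figure D2:**
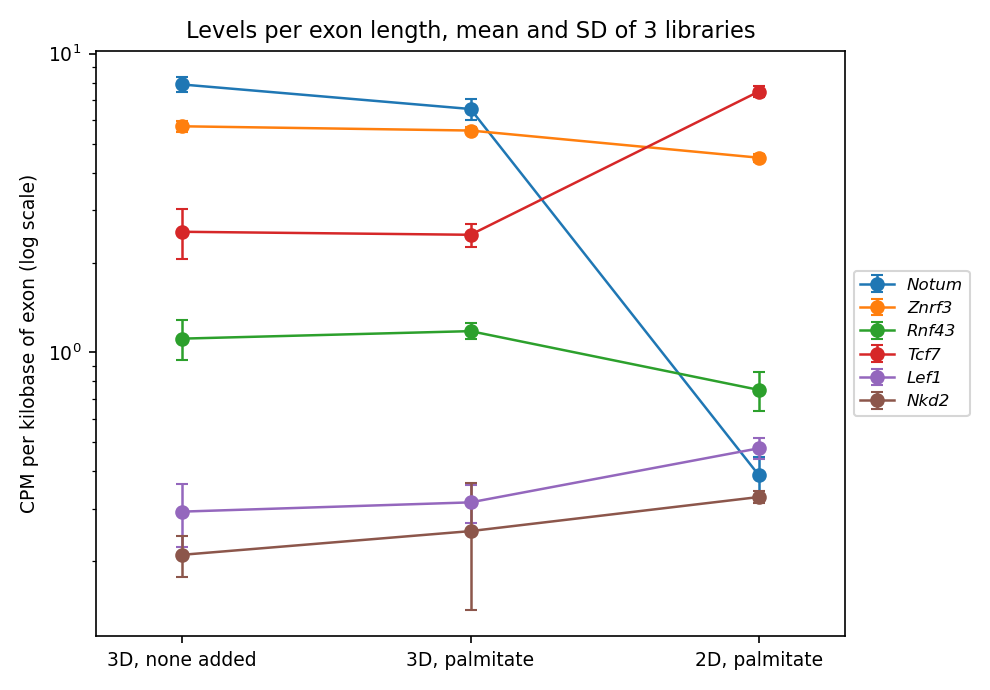
Mean CPM per kilobase of exon (log scale) with SD over 3 libraries for the 6 fitted genes in the 3 conditions, with lines that join the values of one gene. *Notum* passes from 7.89 and 6.53 in the 3D groups to 0.388 in 2D, while *Tcf7* passes from 2.53 and 2.48 to 7.47.

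At a Benjamini-Hochberg adjusted p under 0.05 in edgeR's quasi-likelihood fit over all genes, 5 of the 6 fitted members were called between 3D and 2D, 3 higher and 2 lower in 3D. Over all 12575 genes, 68.3% were called, 34.5% higher and 33.9% lower. The groups did not overlap for the same 5 members and for 69.4% of all genes. Since this contrast was in view when the genes were listed, nothing is read from these counts. The median log2 fold change of the 6 genes was -0.06, against 0.01 over all genes. With palmitate in 3D, 0 of the 6 members were called by edgeR, against 2.19% of all genes, of which 1.38% were higher and 0.811% lower. DESeq2 also called 0 of them, and at an unadjusted p under 0.05 edgeR counted 1, *Notum*. *Notum* was also the only 1 of the 6 whose groups did not overlap, against 18.6% of all genes, and the median log2 fold change of the 6 was -0.02, against 0.01.

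**Figure D3:**
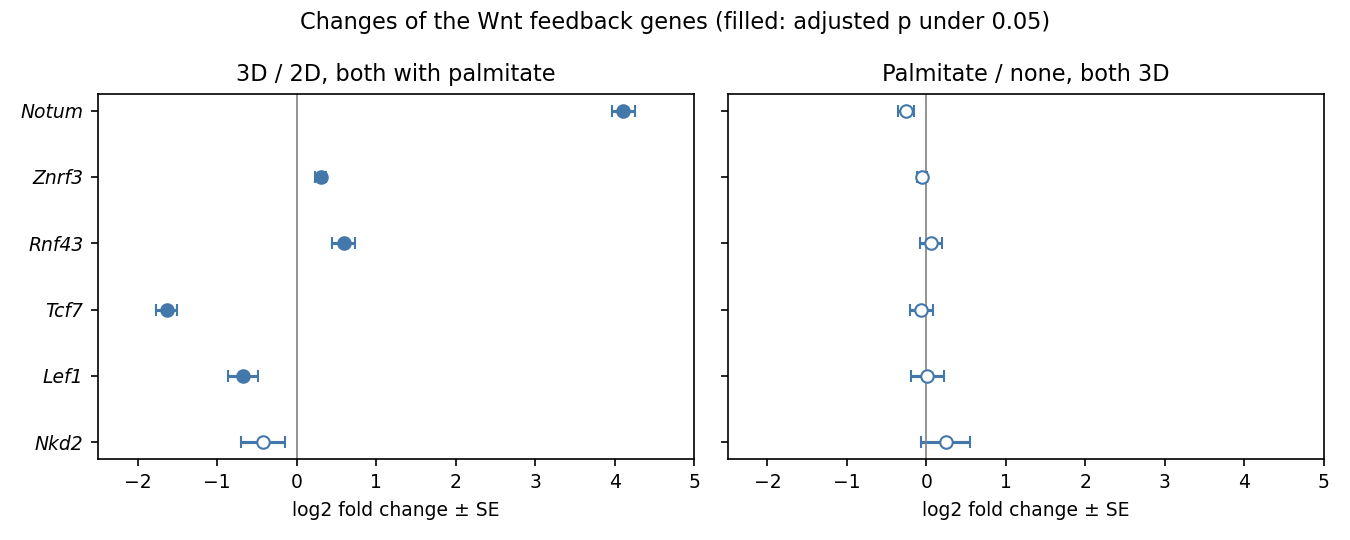
Log2 fold change with SE of the 6 fitted genes for 3D against 2D with palmitate (left) and for palmitate against none in 3D (right), on the same scale. On the left *Notum* stands at 4.11 and *Tcf7* at -1.63, and on the right all 6 values lie between -0.25 and 0.24.

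The genes with the highest Pearson's r of log2 CPM with *Notum* across the 9 libraries were *Pdzrn3*, *Angptl2*, *Galnt2*, *Hr* and *Ehd2*, each with r of 0.999. Pearson's r compares the pattern over libraries and not the level or the size of a change. Of these genes *Hr* had the largest log2 fold change of 3D against 2D, at 2.43, and *Galnt2* the smallest, at 0.97. All were below the 4.11 of *Notum*. The libraries include both 3D and 2D cultures, and 1778 genes had r above 0.95 over them. Within the 6 libraries of 3D cultures alone, r was 0.937 for *Pdzrn3*, 0.861 for *Angptl2*, 0.880 for *Galnt2*, 0.737 for *Hr* and 0.717 for *Ehd2*. These values are descriptions over libraries that share their condition.

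The other genes of the pathway were taken from 7 lists with 120 genes, of which 80 passed the filter. The lists were written from textbook knowledge of the pathway, but with earlier results of these libraries known, and they are not independent of the data. Between 3D and 2D cultures 60 of the 80 were called (75%), 43 higher and 17 lower in 3D. Over all genes 68.3% were called, 34.5% higher and 33.9% lower. The share called was 66.7% for the ligands, the receptors and the nuclear factors, which is just under that of all genes. It was 75% for the lipidation genes and the inhibitors, 84.6% for the other targets and 85% for the transducers. The median log2 fold change of the 80 was 0.27, against 0.01 over all genes. Both the 43 and this median include *Wnt1* and *Tnfrsf19*, which passed the filter through their 3D libraries. The split of the pathway genes was 39 higher and 24 lower when differences that followed GC content and length were taken out. Of the 40 genes that did not pass, 13 were at 0 in all libraries and the largest count in any library was 12. The secreted Wnt inhibitor *Dkk1*, a familiar Wnt target, was at 0 in all of them.

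Of 19 Wnt ligands 9 passed the filter, 4 higher and 2 lower in 3D. *Wnt7b* rose from 167 CPM ± 1.49 in 2D to 267 CPM ± 33.4 in 3D with palmitate (SD, n = 3 each), a log2 fold change of 0.68 (SE 0.0801, edgeR adjusted p = 3.09e-06). *Wnt7a* fell from 79.9 to 38.2 CPM, with a log2 fold change of -1.03 (SE 0.0835, adjusted p = 6.33e-08 in edgeR). *Wnt1* had 0, 2 and 3 counts in 2D and 14, 7 and 7 in 3D with palmitate, so it passed the filter through its 3D libraries and its count among the 4 ligands higher in 3D supports nothing. Its log2 fold change of 2.89 (SE 0.610) rests on few reads and ranged from 1.96 to 3.53 over the settings tried. All 4 genes of ligand lipidation and secretion passed, and 1 rose and 2 fell. *Wls*, the carrier that brings Wnt proteins to the cell surface, rose by 0.67 on the log2 scale (edgeR adjusted p = 2.97e-07). *Scd1* and *Scd2*, desaturases that make the monounsaturated acyl chain, fell by 0.36 and 0.62 (edgeR adjusted p = 0.0291 and 7.53e-05), although the call on *Scd1* was lost without any 1 of 3 libraries: the second with palmitate in 3D, or the first or second in 2D. *Porcn*, which attaches the lipid to Wnt proteins, was at -0.32 (SE 0.176, edgeR adjusted p = 0.120). It was called lower without the first 3D library with palmitate or without the first 2D library.

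At the cell surface, 15 of 22 receptors and R-spondins passed, 8 higher and 2 lower in 3D. *Lgr6*, an R-spondin receptor related to *Lgr5*, was at 19.0, 18.0 and 19.9 CPM in 3D with palmitate and 5.71, 4.97 and 4.99 CPM in 2D, and its log2 fold change was 1.87 (SE 0.118, edgeR adjusted p = 4.51e-09). *Lgr4*, the third of these receptors, was at 23.5 CPM ± 1.43 in 3D with palmitate and 24.3 CPM ± 0.719 in 2D (SD, n = 3 each), beside 6 counts of *Lgr5* in all 9 libraries. The Frizzled receptor *Fzd5* and the co-receptor *Lrp5* rose by 1.21 and 0.86 on the log2 scale (edgeR adjusted p = 7.66e-09 and 1.22e-07). The R-spondin genes *Rspo1*, *Rspo2*, *Rspo3* and *Rspo4* did not pass the filter, and *Rspo3* had 23 counts over 3D without palmitate, 22 over 3D with palmitate and 18 over 2D.

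Of 17 secreted and surface inhibitors only 4 passed, with 2 higher and 1 lower in 3D. *Trabd2b*, which encodes a membrane protease that inactivates Wnt proteins, had a pattern near that of *Notum*. It was at 17.1, 15.8 and 15.7 CPM in 3D without palmitate, 11.2, 10.5 and 12.6 CPM in 3D with palmitate and 0.992, 0.641 and 0.757 CPM in 2D. Its 3 groups did not overlap, and its log2 fold change of 3D against 2D was 3.90 (SE 0.163, edgeR adjusted p = 5.81e-11), beside 4.11 for *Notum*. *Apcdd1*, a membrane-bound Wnt inhibitor, rose by 1.86 on the log2 scale (edgeR adjusted p = 6.80e-09). *Sfrp1*, a secreted protein that binds Wnt proteins, fell by 0.40 (edgeR adjusted p = 0.00836).

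Inside the cell, all 20 transducers and members of the destruction complex passed, 12 higher and 5 lower in 3D. *Ctnnb1*, which encodes β-catenin, rose from 947 CPM ± 23.9 in 2D to 1813 CPM ± 77.1 in 3D with palmitate (SD, n = 3 each), or by 0.94 on the log2 scale (edgeR adjusted p = 3.28e-09). *Tnks*, an enzyme that marks Axin for removal, rose by 1.51 (edgeR adjusted p = 2.31e-07), and *Dact2*, which binds Dishevelled, rose by 0.89 (edgeR adjusted p = 1.84e-06). *Axin1*, the Axin paralog that does not depend on Wnt signaling for its expression, was at 99.9 CPM in 3D with palmitate and 112 CPM in 2D, with a log2 fold change of -0.17 (SE 0.0653, edgeR adjusted p = 0.0289). That call was lost when the first or the second library of 3D with palmitate, or the first or the second of 2D, was left out.

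Of 16 nuclear factors 15 passed, 8 higher and 2 lower in 3D. The remaining members of the TCF family beside *Tcf7* and *Lef1* moved in opposite directions. *Tcf7l1*, a repressor in the absence of β-catenin, fell by 0.43 on the log2 scale (edgeR adjusted p = 0.00741). *Tcf7l2* rose by 0.68 (edgeR adjusted p = 9.37e-06), from 17.0 CPM ± 1.54 in 2D to 27.5 CPM ± 0.858 in 3D with palmitate (SD, n = 3 each). The β-catenin coactivator *Bcl9l* rose by 0.85 (edgeR adjusted p = 2.32e-07), and the corepressor *Tle3* rose by 0.51 (edgeR adjusted p = 3.35e-05) but was at 0.13 and not called with the GC and length trend removed.

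Among 22 other Wnt targets 13 passed, 8 higher and 3 lower in 3D. Of the 8, *Tnfrsf19* was at a mean of 0.295 CPM in 2D and 2.31 CPM in 3D with palmitate. It passed the filter through its 3D libraries, so its place in that count supports nothing. *Id2*, an inhibitor of helix-loop-helix transcription factors, rose by 1.94 on the log2 scale (edgeR adjusted p = 9.00e-12), and the adhesion receptor *Cd44* rose by 1.59 (edgeR adjusted p = 1.27e-10). *Ccn4*, a secreted matrix protein, fell by 1.76 (edgeR adjusted p = 5.48e-11). The growth regulators *Myc* and *Ccnd1*, added here as the most familiar names of this list after their values were seen, went opposite ways. *Myc* fell from 461 CPM in 2D to 166 CPM in 3D with palmitate (edgeR adjusted p = 3.19e-10), and *Ccnd1* rose from 2015 to 2431 CPM (edgeR adjusted p = 0.000290). Each of the 7 lists held genes called higher and genes called lower in 3D.

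With palmitate in 3D, 1 of the 80 pathway genes was called by edgeR, *Trabd2b*, which fell by 0.53 on the log2 scale (SE 0.105, edgeR adjusted p = 0.0210). This call was lost in 5 of the 6 fits that left out 1 of the 3D libraries, with adjusted p between 0.0561 and 0.118, and when only the 2 compared groups were fitted, with an adjusted p of 0.0529. Over all genes 2.19% were called. DESeq2 called 3 of the 80 and 399 of all 12575 genes, and at an unadjusted p under 0.05 edgeR counted 11 of the 80 and 2170 of all genes. The groups did not overlap for 12 of the 80 and for 18.6% of all genes. Among those with the smallest p in their list, *Tle2* was at -0.53 (edgeR adjusted p = 0.0619) and *Id2* at -0.24 (edgeR adjusted p = 0.0620) on the log2 scale. The Wnt receptor *Ror1* was at -0.60 (edgeR adjusted p = 0.0852) and *Fzd9* at 0.76 (edgeR adjusted p = 0.108). Over 18 other settings, *Tle2* was called lower in 5, *Id2* in 4 and *Ror1* in 2. DESeq2 was among them for *Tle2* and *Id2* (DESeq2 adjusted p = 0.0277 and 0.0278). The median of the 80 was -0.03, against 0.01 over all genes, and *Ctnnb1* was at 0.12 (SE 0.0567, edgeR adjusted p = 0.276).

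**Figure D4:**
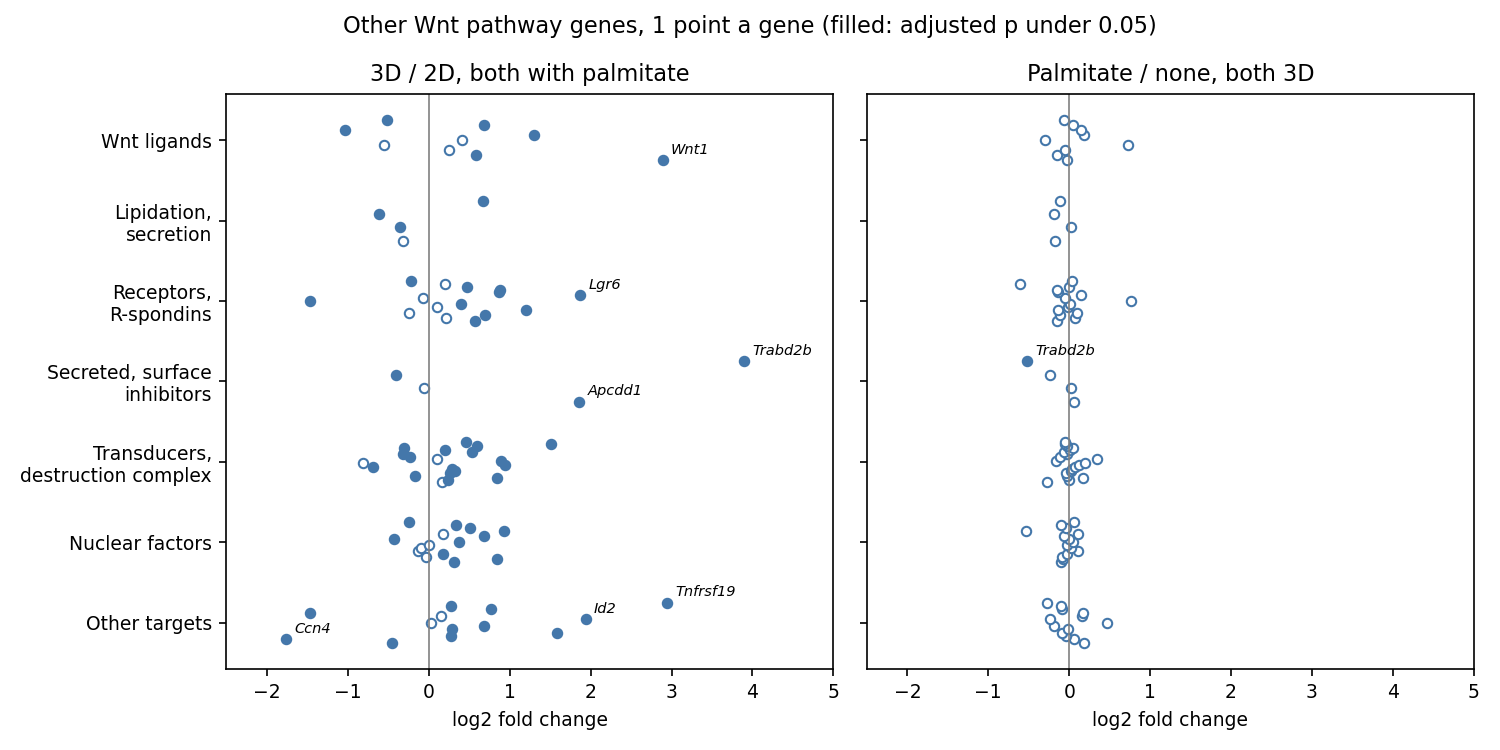
Log2 fold change of the 80 other Wnt pathway genes that passed the filter, 1 point a gene in 7 lists, for 3D against 2D with palmitate (left) and palmitate against none in 3D (right), with filled points for an adjusted p under 0.05. On the left 43 genes are called higher and 17 lower, and on the right only *Trabd2b* is called.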

How the data were processed

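RNA-seq was performed on 9 libraries of 4T1 cells. According to the study's methods, the authors cleaned 50 bp single-end reads of stranded poly(A) libraries with fastq-mcf, inspected them with FastQC 0.11.9, aligned them to GRCm38 with HISAT2 2.1.0 and deposited raw counts per gene from HTSeq-count. The annotation release and strand setting are not given in the sources used here. Every column of the table is 1 library, mapped to its condition and number by the sample titles.

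The analysis used edgeR 4.0.16 in R 4.3.3. After filterByExpr had removed low genes and TMM had set the library scaling, 1 quasi-likelihood fit by condition took in all 9 libraries. A gene was called at a Benjamini-Hochberg adjusted p under 0.05 over the 12575 genes tested. Dividing a log2 fold change by the root of its F statistic, without sign, gave the SE. RPKM used exon lengths of GENCODE M21 on GRCm38. Floors use 3 counts and, like all single-library values, cover counting error only. No 2 libraries of a group agreed within sampling noise (chi-square per gene 3.89 to 19.7). The fit was tested on simulated counts with 200 changed genes. Between 3D and 2D 8594 genes were called, so the simulation does not cover a change that broad. Alternatives were RLE scaling, library size only, no filter, a minimum of 10 counts per library, a fit of the 2 compared groups, a replicate block, DESeq2 1.42.0, a prior count of 2 and each library left out. The GC and length trend, removed by natural splines with 4 degrees of freedom, was added after seeing the data.

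The members and lists were chosen with earlier results of these data known. Genes named outside the members were the 3 with the smallest p in each list and comparison, plus *Ctnnb1*, *Tcf7l1*, *Tcf7l2*, *Axin1*, *Porcn* and *Dkk1*, from which the text gives a part, and the 5 with the highest r with *Notum*. *Lgr4*, the R-spondin genes, *Tnfrsf19*, *Myc* and *Ccnd1* were added after their values were seen.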

Additional observations from a re-analysis of the deposited data

How the results depend on the processing

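Between 3D and 2D, 5 feedback genes were called under other scalings, filters and models and in the 9 fits that each left out 1 library. The number of feedback genes fitted differed between the filters. With the GC and length trend removed 4 were called, and *Znrf3* was lost. For palmitate in 3D, 0 were called under the same settings and 1, *Notum*, with the GC and length trend removed. Of the other pathway genes, 60 were called between 3D and 2D, and 55 to 61 when 1 library was left out. For palmitate in 3D, 1 was called, against 5 without the filter, 0 with the 2 groups alone, 3 with DESeq2, 7 with the GC and length trend removed, and 0 to 10 when 1 library was left out, the highest without the third and shallowest 3D library with palmitate. Over all genes the palmitate count was 275, against 617 without the filter, 77 with the 2 groups alone, 971 with the GC and length trend removed and 71 to 1901 when 1 library was left out, the lowest without the third 3D library without palmitate and the highest without the third with it. With library size as the only scaling, 106 were higher and 121 lower, against 173 and 102. Without the filter 325 were higher and 292 lower. Between 3D and 2D, 8594 genes were called, and 7977 to 8866 when 1 library was left out. *Amer1* turned from a log2 fold change of 0.16 between 3D and 2D to -0.20 with the GC and length trend removed (edgeR adjusted p = 0.0134). The cause was not tested for any of these.

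With the replicate number as a block, 0 pathway genes and 111 of all genes were called with palmitate in 3D, and the edgeR adjusted p was 0.0507 for *Trabd2b* there. Between 3D and 2D the block lost the call on *Axin1* (edgeR adjusted p = 0.0528) and gained one on *Wnt11* (edgeR adjusted p = 0.0488), and it changed no other call among the genes named by the rule. Deviations from the group means correlated at -0.24 to 0.15 between libraries of the same number. Between libraries of other numbers they correlated at -0.17 to 0.28. No pairing by number was seen, but these few pairs cannot exclude it. Depth limits *Axin2*, *Nkd1*, *Lgr5* and *Sp5*, and *Nkd2* dropped out when at least 10 counts were required in every library.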
